A study of Homo sapiens with 9 samples.

Results

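The transcripts of the NF-κB subunits and of their feedback inhibitors were measured by RNA sequencing in MDA-MB-231 cells, an established human line of triple-negative breast cancer. The members were chosen by gene name: RELA, RELB, REL, NFKB1 and NFKB2 (5 subunits), NFKBIA, NFKBIB and NFKBIE (3 IκB inhibitors), and TNFAIP3 and BIRC3 (2 other feedback genes). These are 10 of the 61552 genes listed, and all 10 passed the filter on low values. The cells were kept for 24 h without 2-deoxy-D-glucose (2-DG), given phosphate-buffered saline by the methods of the study, or with 10 mM or 20 mM 2-DG, a glucose analog that blocks glycolysis. Each condition had 3 libraries of this single cell line, and the labels do not say that they came from separate cultures. The p-values therefore measure the spread between these libraries, which may be technical.

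NF-κB is a family of dimeric transcription factors. RELA, RELB and REL carry a domain that activates transcription, whereas NFKB1 and NFKB2 are made as long precursors, p105 and p100, that are cut to the DNA-binding subunits p50 and p52. In resting cells IκB proteins hold the dimers in the cytoplasm, and kinases of the IKK complex mark IκB for destruction after signals from cytokine and Toll-like receptors. NFKBIA, TNFAIP3, BIRC3 and several subunit genes are themselves known NF-κB target genes, so the pathway feeds back on its own parts.

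The values are FPKM, fragments counted per exon length and per library total. Levels can therefore be compared between genes per length, as far as the length counted for each gene fits its transcripts, which was not tested. The library totals recovered from the FPKM steps lay between 30974968 and 40843638. The 5 markers of the line (VIM, CD44, AXL, CAV1 and MSN) summed to 802 to 820 FPKM per control library. At 10 mM they summed to 718 to 786 and at 20 mM to 726 to 754, below the control at both doses. ESR1, PGR and CDH1 were under 1 FPKM throughout, and ERBB2 and EPCAM were detected. Of 7 markers of other cell types, 5 were under 1 FPKM in every library, and CD3E was at most 0.0109 FPKM. These 7 markers summed to 2.91 to 3.22 FPKM per control library, 2.07 to 2.46 at 10 mM and 1.87 to 2.17 at 20 mM, led by PECAM1 and COL1A1, and their part in the results was not tested. The least alike replicates were 10 mM replicates 1 and 2, with a Pearson correlation of 0.9889 across genes. The 20 mM replicates were the most alike, at 0.9957 to 0.9961. In such bulk samples fewer cells with a transcript and less of it per cell cannot be told apart.

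The starts of the genes are shown because several of them are known targets of the family itself, which binds a 10-base DNA sequence, the κB decamer. RefSeq sequence (GRCh38.p14) of the 250 bases before each annotated transcript start was searched on both strands for the κB decamer consensus, and matches that overlap on opposite strands were counted as 1 site. A start was given for 8 of the 10 members, with 13 windows in all, and RELB and NFKBIE had none. The decamer was found in 8 of the 13 windows, against 9.96% of all 35116 windows. By gene it was found in 7 of the 8 members, against 11.8% of all gene names with a window. RELA had a window for each of its annotated starts and no match in them. Several members are known targets, so these shares are not independent of the choice of genes. A match describes the letters only.

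The region before the start of NFKBIA and BIRC3, the members with the largest differences below, is printed 5′ to 3′ on the strand of the gene, up to the first annotated exon base, with matches to the decamer in capitals. The NFKBIA window lies at chr14:35404750-35404999 on the minus strand and has 1 match, at positions -81 to -72 from the start. The BIRC3 stretch lies at chr11:102317234-102317449 on the plus strand and has 2 matches, at -199 to -190 and at -135 to -126.
NFKBIA: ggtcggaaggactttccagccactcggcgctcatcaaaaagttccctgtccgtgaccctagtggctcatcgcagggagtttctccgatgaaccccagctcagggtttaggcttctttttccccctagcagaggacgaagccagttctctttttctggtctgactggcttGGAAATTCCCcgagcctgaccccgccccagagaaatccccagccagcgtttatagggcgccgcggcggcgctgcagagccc
BIRC3: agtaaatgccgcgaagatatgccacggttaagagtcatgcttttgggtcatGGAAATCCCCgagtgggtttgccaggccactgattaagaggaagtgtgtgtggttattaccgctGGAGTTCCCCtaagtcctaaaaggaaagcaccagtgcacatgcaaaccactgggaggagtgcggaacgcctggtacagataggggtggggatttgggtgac

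For the other members with a match, 30 bases around a site are printed 5′ to 3′ with matches in capitals, so that the sites of called and uncalled genes can be compared, with 2 of the 4 sites of NFKB2. All lie on the plus strand: REL at chr2:60881517-60881546, NFKB1 at chr4:102501300-102501329, NFKB2 at chr10:102394461-102394490 and chr10:102395674-102395703, NFKBIB at chr19:38899931-38899960 and TNFAIP3 at chr6:137867188-137867217. TNFAIP3 holds 2 matches within the 30 bases. These stretches do not stop at the first exon, and 9 to 30 of their 30 bases lie in exons annotated by GENCODE 29, 30 of 30 for TNFAIP3 and for the second start of NFKB2.
REL: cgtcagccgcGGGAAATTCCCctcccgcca
NFKB1: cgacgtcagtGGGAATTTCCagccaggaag
NFKB2, second start: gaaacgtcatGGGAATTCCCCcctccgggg
NFKB2, last start: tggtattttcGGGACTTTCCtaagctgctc
NFKBIB: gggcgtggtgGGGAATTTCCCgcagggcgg
TNFAIP3: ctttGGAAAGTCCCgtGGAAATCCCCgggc

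**Figure D1:**
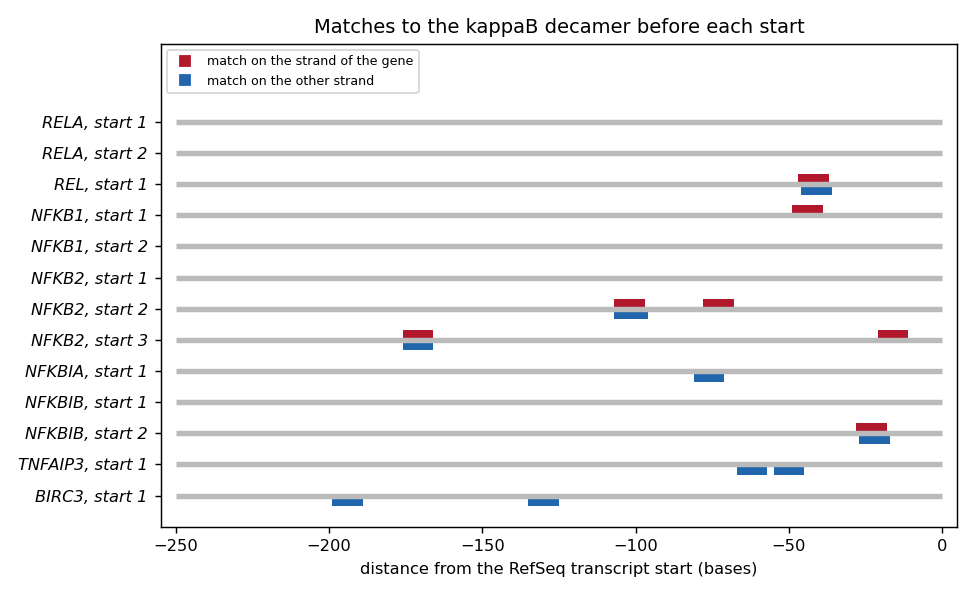
Matches to the κB decamer in the 250 bases before each RefSeq start of the members; the x axis is the distance from the start in bases, each gray line is 1 window, and red and blue boxes are matches on the strand of the gene and on the other strand. The 8 windows with a match belong to 7 genes, and both RELA windows are empty.

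At 20 mM 2-DG the members differed from the control in both directions. BIRC3, NFKBIA and NFKB2 were lower than in the control and RELA was higher, whereas the other 6 members did not pass the test. BIRC3 had 0.468 times its control level, NFKBIA 0.693 times, NFKB2 0.858 times and RELA 1.12 times. Genes were called at an adjusted p under 0.05 in limma's moderated two-sided test on log2(FPKM + 1), fitted on all 16572 genes with enough reads and adjusted by Benjamini-Hochberg over them. Calls were common at this dose, with 37.0% of all genes called, 15.4% higher and 21.6% lower, so 4 of 10 members called was near the background. By non-overlap of the libraries, 3 members lay higher (RELA, RELB and NFKBIE) and 3 lower (NFKB2, NFKBIA and BIRC3), where 23.3% and 29.9% of all genes did so.

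At 10 mM 2-DG, 2 members were called. BIRC3 was lower, at 0.600 times the control level, and RELB was higher, at 1.20 times, and the other 8 did not pass the test. Of all genes, 29.7% were called at this dose, 12.1% higher and 17.5% lower, so 2 of 10 members was not above the background. RELA, RELB and NFKBIE lay above every control library and NFKB1, NFKB2 and BIRC3 below, against 17.8% and 22.7% of all genes. Both doses were compared with the same 3 control libraries, so the 2 comparisons are not independent.

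Between 10 mM and 20 mM 2-DG no member was called by limma, nor by limma-voom on recovered reads, and limma called 0 of all genes. At an unadjusted p under 0.05, 1139 genes (6.87%) passed, with NFKBIA, TNFAIP3 and BIRC3 among them, all lower at 20 mM. The same 3 members were the ones without overlap between the doses, all lower, as were 7.14% of all genes, and 0 members lay higher without overlap, as did 4.71% of all genes. The methods of the study used DESeq2, with thresholds of p under 0.05 and a log2 fold change beyond 1 in either direction. Here these thresholds were put on the limma fit to log2(FPKM + 1), with p taken before adjustment. In that fit no member passed at 10 mM, at 20 mM or between the doses, where 1.74%, 2.92% and 0.00603% of all genes did. The result at 20 mM depended on the setting. At that dose 1 member passed with a pseudocount of 0.1, with limma-voom on recovered reads or without control replicate 1. No member did so in the other settings tried.

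**Figure D2:**
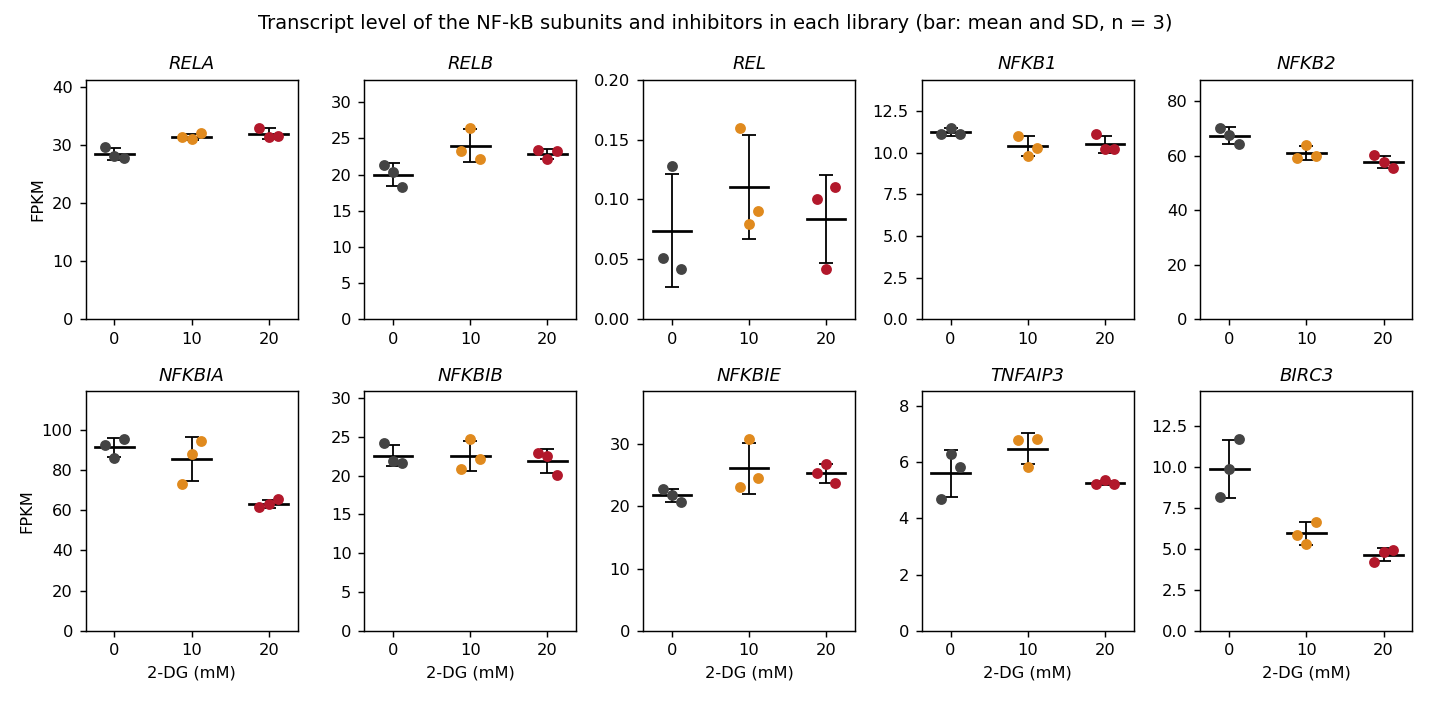
FPKM (y axis, from 0) of each member in every library against the 2-DG dose in mM; points are libraries, and bars give the mean and SD of 3. BIRC3 and NFKBIA lie lowest at 20 mM, and REL stays under 0.2 FPKM.

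Among the subunits, RELA, the activating subunit of the classical p50 dimer, was 29.6, 28.1 and 27.7 FPKM in the control libraries, 31.3, 31.0 and 32.0 at 10 mM and 33.0, 31.3 and 31.6 at 20 mM. Every treated library lay above every control library. The log2 fold change was 0.16 (SE 0.050, limma adjusted p = 0.0311) at 20 mM and 0.14 (SE 0.050, adjusted p = 0.0684) at 10 mM. The call at 20 mM was lost with limma-voom on recovered reads (adjusted p = 0.0679). It was also lost when control replicate 2 (adjusted p = 0.0912), control replicate 3 (0.0908) or 20 mM replicate 1 (0.124), 2 (0.0678) or 3 (0.0738) was left out of the limma fit.

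RELB, which pairs mainly with p52 in the alternative pathway, was 21.3, 20.4 and 18.3 FPKM in the control, 23.3, 26.5 and 22.1 at 10 mM and 23.4, 22.1 and 23.2 at 20 mM. The treated libraries were again all above the control, and 10 mM replicate 2 was the highest. The log2 fold change was 0.25 (SE 0.079, limma adjusted p = 0.0399) at 10 mM and 0.19 (SE 0.079, adjusted p = 0.0869) at 20 mM. The call at 10 mM was lost in 7 of the 9 fits without 1 library, those without control replicate 2 (limma adjusted p = 0.0736) or 3 (0.131), 10 mM replicate 1 (0.0549) or 2 (0.0986), or 20 mM replicate 1 (0.0603), 2 (0.0589) or 3 (0.0607). It was also lost with all genes above 0 in the limma fit (adjusted p = 0.0907) or only the 2 groups compared (0.0934), and 7 of 17 alternatives kept it. Without 10 mM replicate 2 the limma test also called RELB at 20 mM (adjusted p = 0.0416). The limma fit with only the 2 groups compared called it at 20 mM as well, and 3 of 17 alternatives did so in all.

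NFKB2, the precursor p100 that also acts as an inhibitor of RELB dimers, was the most abundant subunit transcript. It measured 70.3, 67.7 and 64.2 FPKM in the control, 59.1, 63.8 and 60.0 at 10 mM and 60.1, 57.6 and 55.6 at 20 mM. All treated libraries lay below all control libraries. NFKB2 fell by 14.2% at 20 mM, with a log2 fold change of -0.22 (SE 0.058, limma adjusted p = 0.0149), and had -0.14 (adjusted p = 0.0948) at 10 mM. The call at 20 mM was lost without control replicate 1 (limma adjusted p = 0.0541), 20 mM replicate 2 (0.0527) or 20 mM replicate 3 (0.067). It was also lost with median-ratio factors (0.116) or upper-quartile factors (0.183) as the scaling.

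NFKB1, the precursor of p50, was nearly level across conditions, between 9.81 and 11.5 FPKM in the 9 libraries. Its log2 fold change was -0.11 (95% confidence interval -0.25 to 0.04) at 10 mM and -0.09 (-0.23 to 0.05) at 20 mM. REL, which is best known from lymphoid cells, was barely detected. It was 0.0513, 0.128 and 0.0421 FPKM in the control, 0.160, 0.0799 and 0.0906 at 10 mM and 0.10, 0.0420 and 0.110 at 20 mM, from 19 to 74 recovered reads per library. The groups overlapped, and neither dose passed the test (limma adjusted p = 0.479 and 0.842). The REL level is also uncertain because 43.3% of its exon bases are shared with a noncoding gene on the same strand, which was listed at 0.

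Within the summed FPKM of the 5 subunits, NFKB2 made up 53.0% ± 0.128 (SD, n = 3) in control libraries, 48.1% ± 0.650 at 10 mM and 46.9% ± 0.724 at 20 mM. RELA went from 22.4% ± 0.425 to 24.8% ± 1.04 and 25.9% ± 0.194, and RELB from 15.7% ± 0.543 to 18.9% ± 1.24 and 18.6% ± 0.552. The sum itself was 127 FPKM in control libraries, 127 at 10 mM and 123 at 20 mM. The treated libraries did not overlap the control for these 3 shares, which are given as a description.

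Of the IκB inhibitors, NFKBIA (IκBα), the fast feedback inhibitor of RELA dimers, had the highest level of all 10 members in every condition. It was 92.7, 86.2 and 95.4 FPKM in the control, 73.3, 88.3 and 94.7 at 10 mM and 61.5, 63.0 and 65.5 at 20 mM. The 20 mM libraries lay below all others, whereas the 10 mM libraries spread over and below the control range, with 10 mM replicate 1 the lowest of them. NFKBIA fell by 30.7% at 20 mM, with a log2 fold change of -0.52 (SE 0.089, limma adjusted p = 0.00138). At 10 mM the log2 fold change was -0.10 (SE 0.089, adjusted p = 0.42), and it was 0.00175 without 10 mM replicate 1. The direct difference of 20 mM against 10 mM was -0.42 (95% confidence interval -0.62 to -0.22, limma adjusted p = 0.268).

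NFKBIE (IκBε), a slower inhibitor, lay on the other side. It was 22.8, 21.8 and 20.7 FPKM in the control, 23.1, 30.8 and 24.5 at 10 mM and 25.3, 26.9 and 23.7 at 20 mM. Every treated library was above the control, and 10 mM replicate 2 was far above its group. The log2 fold change did not pass the test at 10 mM (0.24, SE 0.099, limma adjusted p = 0.0973) or at 20 mM (0.21, SE 0.099, adjusted p = 0.136). Leaving out 10 mM replicate 2 gave an adjusted p of 0.0288 in limma for 20 mM, and leaving out 10 mM replicate 1 gave 0.0377 for 10 mM. The limma fit with only the 2 groups compared also called NFKBIE at 20 mM, and 2 of 17 alternatives did so in all. NFKBIB (IκBβ) ranged from 20.1 to 24.7 FPKM with overlapping groups, and its log2 fold change was -0.01 (95% confidence interval -0.19 to 0.17) at 10 mM and -0.05 (-0.23 to 0.13) at 20 mM.

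NFKBIA made up less of the summed IκB transcripts at 20 mM, 57.3% against 67.3% in the control and 63.7% at 10 mM. The ratio of NFKBIA to RELA was 3.13, 3.06 and 3.44 in the control, 2.34, 2.85 and 2.96 at 10 mM and 1.86, 2.01 and 2.07 at 20 mM. The 3 groups did not overlap. The ratio of the 5 subunits to the 3 IκB inhibitors was 0.937 ± 0.0522 (SD, n = 3) in control libraries, 0.953 ± 0.0983 at 10 mM and 1.12 ± 0.0438 at 20 mM. The 20 mM libraries (1.08 to 1.16) lay above the control (0.881 to 0.984), and 10 mM replicate 1, at 1.07, lay above the control as well. Without NFKBIA in the sum, the ratio was 2.87 in control libraries, 2.63 at 10 mM and 2.62 at 20 mM. These ratios are of transcripts, and no test was run on them.

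**Figure D3:**
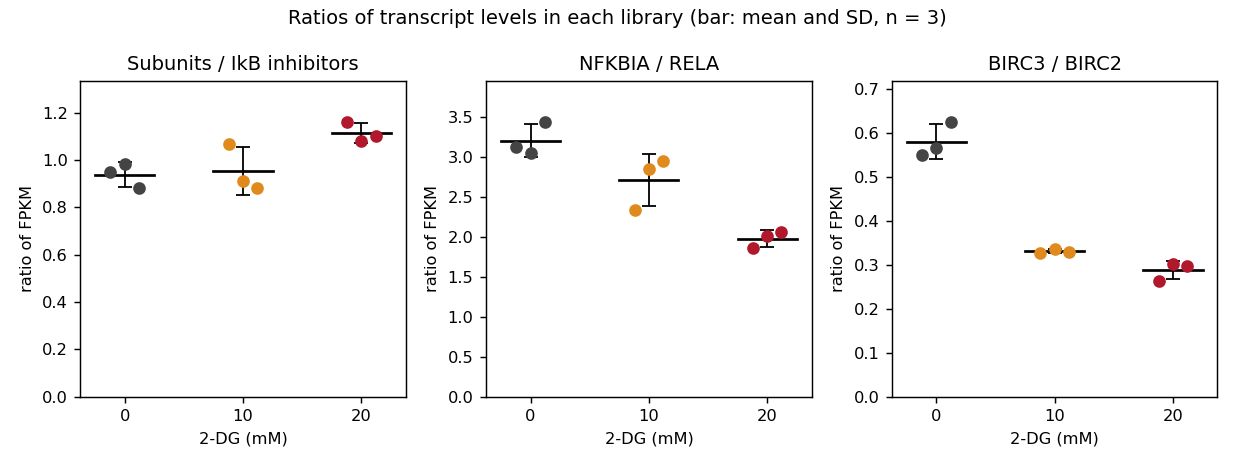
Ratios of FPKM in every library against the 2-DG dose in mM: the 5 subunits over the 3 IκB inhibitors, NFKBIA over RELA, and BIRC3 over its paralog BIRC2; points are libraries and bars give the mean and SD of 3. NFKBIA over RELA goes from 3.06 to 3.44 in the control down to 1.86 to 2.07 at 20 mM.

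BIRC3 (cIAP2), a ubiquitin ligase that acts downstream of TNF receptors and limits the alternative pathway, had the largest difference of the members at both doses. It was 8.15, 9.87 and 11.7 FPKM in the control, 5.88, 5.30 and 6.67 at 10 mM and 4.20, 4.81 and 4.93 at 20 mM. The 3 groups did not overlap, and the control libraries had the widest spread. BIRC3 fell by 40.0% at 10 mM, with a log2 fold change of -0.64 (SE 0.124, limma adjusted p = 0.00393). It fell by 53.2% at 20 mM, with -0.94 (SE 0.124, limma adjusted p = 0.000297). From 10 mM to 20 mM the log2 difference was -0.30 (95% confidence interval -0.58 to -0.02, limma adjusted p = 0.703). The log2 ratio of the mean FPKM, without the pseudocount of 1, was -0.74 at 10 mM and -1.09 at 20 mM. BIRC3 passed the thresholds of the study at 20 mM with limma-voom on recovered reads (log2 fold change -1.08). It also passed them with a pseudocount of 0.1 (-1.07) or without control replicate 1 (-1.06).

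BIRC2 (cIAP1), the neighboring paralog of BIRC3 on chromosome 11, was 17.0 ± 2.02 FPKM (SD, n = 3) in control libraries, 18.0 ± 2.21 at 10 mM and 16.1 ± 0.345 at 20 mM. The ratio of BIRC3 to BIRC2 was 0.550 to 0.624 in control libraries, 0.326 to 0.335 at 10 mM and 0.264 to 0.302 at 20 mM. The 3 ranges did not overlap.

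TNFAIP3 (A20), an enzyme that edits ubiquitin chains on RIPK1 and other adaptors and ends the signal, was 4.69, 6.31 and 5.83 FPKM in the control, 6.79, 5.84 and 6.82 at 10 mM and 5.24, 5.36 and 5.23 at 20 mM. The control range held all 20 mM libraries and 10 mM replicate 2. The log2 fold change was 0.18 (95% confidence interval -0.04 to 0.41) at 10 mM and -0.07 (-0.29 to 0.16) at 20 mM. All 20 mM libraries lay below all 10 mM libraries, with a log2 difference of -0.25 (SE 0.101, limma adjusted p = 0.684).

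**Figure D4:**
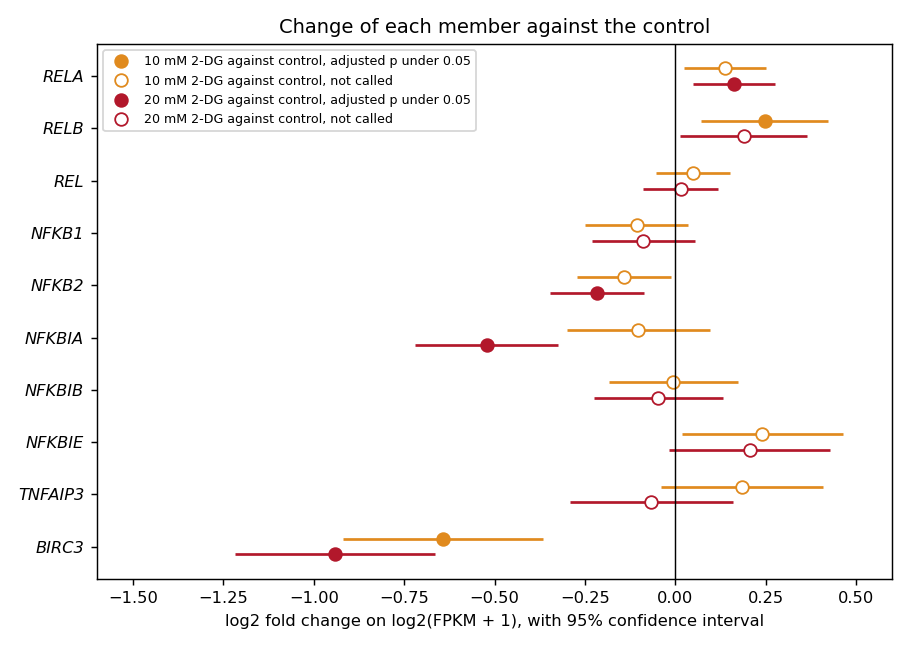
Log2 fold change of each member against the control on log2(FPKM + 1) (x axis), with 95% confidence intervals, at 10 mM (orange) and 20 mM 2-DG (red); filled points have a limma adjusted p under 0.05. At 20 mM the filled points are RELA (0.16), NFKB2 (-0.22), NFKBIA (-0.52) and BIRC3 (-0.94).

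In order of level, NFKBIA, NFKB2 and RELA came first in all 3 conditions, each apart from the next, and REL came last. In the control NFKBIB overlapped NFKBIE, the next in order, and NFKBIE overlapped RELB. BIRC3 overlapped NFKB1 in the control, ranked below TNFAIP3 at both doses, overlapped it at 10 mM and lay apart from it at 20 mM.

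The other genes of the pathway were taken from 4 lists. Of 15 receptors, 14 were tested, and at 20 mM 5 were higher and 1 was lower, as at 10 mM. Of all genes, 15.4% were called higher and 21.6% lower at 20 mM, and 12.1% and 17.5% at 10 mM. Their median log2 fold change was 0.07 at 20 mM and 0.06 at 10 mM, against -0.02 and -0.01 over all genes. TLR6, a partner of TLR2, rose from 0.891 ± 0.148 FPKM (SD, n = 3) to 2.42 ± 0.145 at 20 mM, and TLR4, the receptor for lipopolysaccharide, from 1.62 ± 0.154 to 2.36 ± 0.167. LTBR, the lymphotoxin beta receptor of the alternative pathway, rose from 36.4 ± 1.80 to 56.0 ± 1.18, and TNFRSF12A, the receptor for TWEAK, from 127 ± 6.84 to 163 ± 3.76. CD40, another receptor of the alternative pathway, fell from 5.75 ± 0.648 to 3.13 ± 0.0865. All 5 of these were also called at 10 mM.

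Of 29 adaptors, ubiquitin ligases and kinases, 6 were higher and 9 lower at 20 mM, and 4 and 5 at 10 mM, where 37.0% and 29.7% of all genes were called in either direction, so the share at 10 mM was near the background. Their median was -0.05 at 20 mM and -0.03 at 10 mM. RBCK1 (HOIL-1), a part of the ligase complex that builds linear ubiquitin chains, rose from 58.1 ± 4.84 to 111 ± 4.68 FPKM (SD, n = 3) at 20 mM. IKBKG (NEMO), the regulatory subunit of the IKK complex, rose from 1.87 ± 0.196 to 3.49 ± 0.293, a level that is uncertain because the gene has a near-identical pseudogene copy. The ligase TRAF6 and the kinase RIPK1 rose by 0.44 and 0.43 on the log2 scale. IKBKE, an IKK-related kinase, fell from 14.1 ± 1.61 to 7.43 ± 0.599, and MAP3K8, a kinase held by p105, from 4.14 ± 0.194 to 2.13 ± 0.317. TRAF2, the adaptor that recruits BIRC2 and BIRC3, and UBE2N, which makes lysine-linked chains with TRAF6, had log2 fold changes of -0.42 and -0.35, both called.

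Of 20 other inhibitors and nuclear IκB proteins, 2 were higher and 5 lower at 20 mM, and 2 and 2 at 10 mM. These shares were not above the 37.0% and 29.7% of all genes called. Their median was -0.10 at 20 mM and -0.08 at 10 mM. BCL3, a nuclear IκB protein that binds p50 and p52 dimers, fell from 30.4 ± 3.00 to 13.6 ± 0.643 FPKM (SD, n = 3), with 16.3 ± 2.02 at 10 mM. NFKBIZ and NFKBID, further nuclear IκB proteins, had log2 fold changes of -0.57 and -0.51 at 20 mM, both called. TNIP1, a partner of TNFAIP3, fell from 132 ± 7.27 to 91.6 ± 2.88. NFKBIL1 and TNIP2 rose by 0.49 and 0.28 on the log2 scale.

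Of 32 target genes, 31 were tested, and 2 were higher and 22 lower at 20 mM, and 2 and 18 at 10 mM, against 15.4% and 21.6% of all genes at 20 mM and 12.1% and 17.5% at 10 mM. Their median was -0.61 at 20 mM and -0.46 at 10 mM. This list, like the other 3, was chosen with earlier results of these data known, so its counts are a description only. The cytokine IL1B fell from 31.7 ± 3.86 FPKM (SD, n = 3) to 11.5 ± 1.66 at 10 mM and 7.22 ± 1.26 at 20 mM, and CXCL1, CSF2 and IL6 fell by 2.47, 2.43 and 2.43 on the log2 scale at 20 mM. CXCL3, a chemokine close in sequence to CXCL1, went the other way, from 8.06 ± 0.971 to 19.6 ± 3.30. Because of this likeness the reads of both CXCL1 and CXCL3 are uncertain. RIPK2, a kinase downstream of NOD receptors, rose from 13.5 ± 0.969 to 20.8 ± 0.270. No gene of the 4 lists was called between the doses by limma, where 0 of all genes were.

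**Figure D5:**
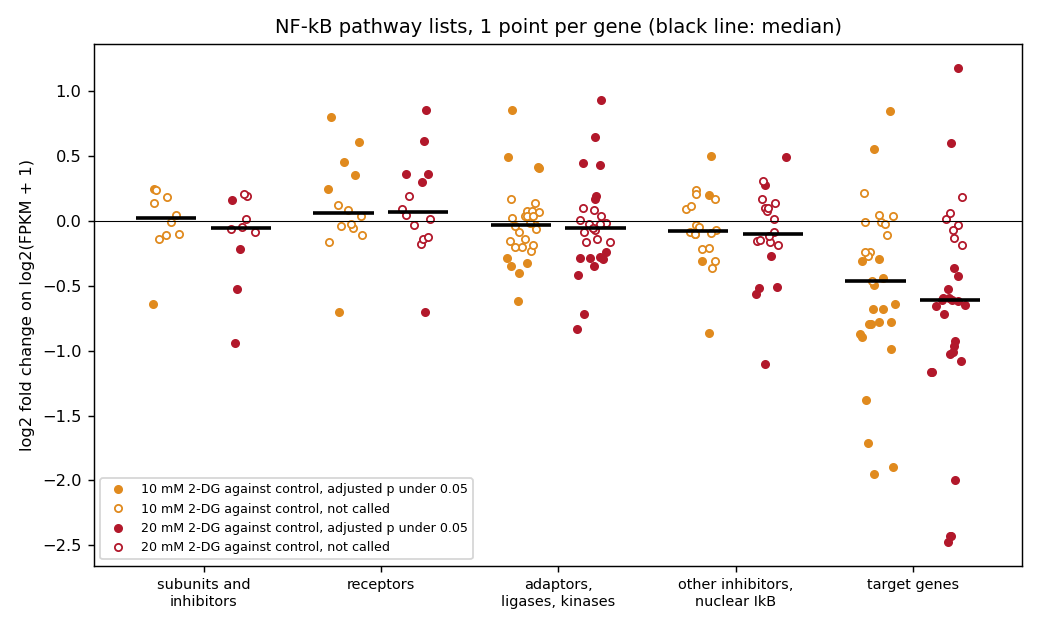
Log2 fold change against the control on log2(FPKM + 1) (y axis) for the members and the 4 pathway lists, with 1 point per tested gene at 10 mM (orange) and 20 mM 2-DG (red); filled points have a limma adjusted p under 0.05 and black lines are medians. The target genes have the lowest medians, -0.46 and -0.61.

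The κB decamer was found before the start of 12 of the 27 target genes with a window and of 8 of the 18 other inhibitors with one, 44.4% of each. It was found for 4 of 25 adaptors, ligases and kinases (16.0%) and 1 of 12 receptors (8.33%), and for 11.8% of all gene names with a window. The target genes were listed as known targets, so their share is not independent of that choice. Among the members, a match was present in called genes (BIRC3, NFKBIA and NFKB2) and in genes that were not called (TNFAIP3, NFKB1, NFKBIB and REL).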

How the data were processed

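The authors sequenced total RNA and deposited FPKM values per Ensembl gene, 1 file per library. The submitters' processing notes name the builds GRCh38 and hg38, and the aligner, the counting tool and the annotation are not given in the sources used here. Library totals were recovered from the FPKM steps with GENCODE 29 exon lengths. Those lengths gave whole reads for 48.6% of the 32806 genes above 0, and for the others, 7 of the 10 members included, the smallest length that made all values whole was used, which leaves a common factor of reads and length unseen. The recovered reads made up 99.82% to 99.88% of the totals. The recovered totals were at distance 0 from whole numbers in the 20 mM libraries and within 0.0002078 in the others. The 20 mM values may thus have been written with more digits. Whether those libraries were also processed apart was not tested and cannot be told apart from the dose. A gene was tested if 3 or more libraries held the equivalent of 10 reads, scaled to the median total, and the 9 together held 15 or more. limma 3.58.1 in R 4.3.3 (lmFit and eBayes with a trend) was fitted to log2(FPKM + 1) of all 9 libraries, with no replicate block and Benjamini-Hochberg adjustment. It was tested on simulated data. The fit takes 1 spread per gene for all 3 groups, so its standard errors do not reflect that replicates were less alike at 10 mM than at 20 mM. The pseudocount understates changes of low genes. Groups came from the labels, and no 2 libraries were duplicates. The members and lists were chosen with earlier results of these data known. Named genes were the 10 members and, per list, up to 4 higher and 4 lower genes called at 20 mM, by size. Alternatives covered scaling, pseudocount, filter, block, limma-voom, groups in the fit and single libraries left out. The lactate-treated cells of the study were not analysed here. In addition to the 7 markers of other cell types in the text, 1 more is not reported here.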

Additional observations from a re-analysis of the deposited data

How the results depend on the processing

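BIRC3 at both doses and NFKBIA at 20 mM were called in 17 of 17 alternatives. Of 510 fold changes of members under the alternatives, 459 kept their direction and side of the threshold, 22 lost the call, 7 gained it and 22 changed sign, none of them called before or after. The number of members called higher at 10 mM (1) was 2 with upper-quartile factors, 0 with all genes above 0 and 0 with only 2 groups in the fit, and from 0 to 1 without single libraries. At 20 mM (1) it was 2 with upper-quartile factors, 0 with limma-voom, 3 with 2 groups in the fit, and from 0 to 3 without single libraries. Past the thresholds of the study at 20 mM (0) there was 1 member with a pseudocount of 0.1, 1 with limma-voom, and from 0 to 1 without single libraries. The subunit to IκB ratio for control, 10 mM and 20 mM libraries was 2.87, 2.63 and 2.62 without NFKBIA, and 0.227, 0.271 and 0.308 with NFKB1 and NFKB2 counted as IκB proteins.

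Signs changed for uncalled members with median-ratio factors (NFKBIB 0.0297 at 10 mM and 0.00607 at 20 mM) and upper-quartile factors (NFKBIB 0.0559 and 0.0445, TNFAIP3 0.0144 at 20 mM). Without single libraries, NFKBIA at 10 mM ranged from -0.181 to 0.00175, NFKBIB from -0.073 to 0.0478 at 10 mM and from -0.0803 to 0.0091 at 20 mM, REL at 20 mM from -0.00713 to 0.0503, and TNFAIP3 at 20 mM from -0.171 to 0.00997. Between the doses RELB ranged from -0.111 to 0.015, NFKB1 from -0.0183 to 0.0576, NFKBIB from -0.0949 to 0.0258 and NFKBIE from -0.117 to 0.084. Deviations from the group means correlated from -0.406 to 0.293 for same-numbered libraries and from -0.23 to 0.521 for differently numbered ones. The highest values were those of control replicate 1 with 10 mM replicate 2 (0.521) and of control replicate 2 with 10 mM replicate 1 (0.488). A block by replicate number does not follow these crossed pairs. The replicate numbers thus showed no pairing, but these correlations do not settle whether the libraries were paired. With the replicate block, the members called higher at 10 mM and at 20 mM were 0 and 0 (RELB at 10 mM, limma adjusted p = 0.0528, and RELA at 20 mM, 0.0538) and the other inhibitors called higher at 10 mM were 1. The cause of these changes was not tested. REL rests on at most 74 reads per library.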
